A study of Mus musculus with 6 samples.

Results

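Alcohol and aldehyde dehydrogenases were followed through 9 genes, Adh1, Adh4, Adh5, Adh7, Aldh1a1, Aldh1a7, Aldh2, Aldh3a2 and Aldh9a1, of 8252 genes named on the array. They were taken as every probe set, meaning a handful of short oligonucleotides that read the same transcript, whose annotated symbol is one of these names, which gave 15 probe sets. Liver RNA came from wild-type C57BL/6J male mice aged 8 to 10 weeks, with 1 mouse per Affymetrix U74Av2 array. In 3 mice, numbered 1, 12 and 3 in the labels, the common bile duct was ligated and cut under methoxyflurane anaesthesia and the liver was taken 1 day later (bile duct ligation, BDL). The other 3 mice, numbered 1, 2 and 3, had a laparotomy without ligation and were sampled at the same time (sham), so that both groups share surgery and anaesthesia. Ligation stops bile flow in the whole liver at once, and a single early time was sampled. The RNA is that of whole tissue, in which fewer cells of a type and less RNA per cell cannot be told apart.

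Alcohol dehydrogenases oxidize alcohols to aldehydes with NAD+, and aldehyde dehydrogenases oxidize the aldehydes onward to acids. In hepatocytes the pair clears ethanol through acetaldehyde to acetate, turns retinol through retinaldehyde into retinoic acid, and removes formaldehyde and the aldehydes that arise when lipids are oxidized. The mouse Adh genes lie together on chromosome 3 in the order Adh7, Adh1, Adh4 and Adh5, with further Adh genes between Adh1 and Adh4, and Aldh1a1 and Aldh1a7 are neighbours on chromosome 19.

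None of the 9 genes differed between BDL and sham mice beyond the spread between mice, and the spread itself separated them. Signals of Adh5 and Aldh9a1 were nearly level across the 6 mice, whereas those of Aldh1a1, Aldh1a7 and Aldh3a2 were far lower in 1 BDL mouse, replicate 12, than in the other 5 mice. With limma, 0 of the 9 genes and 0 of the 15 probe sets reached an unadjusted p under 0.05, against 5.78% of the 9542 probe sets tested on the array, and 0 passed a Benjamini-Hochberg adjusted p of 0.05, against 0.0% of all. Groups did not overlap for 0 of the 15 probe sets, against 10.6% of those tested (6.32% higher in BDL and 4.32% lower). The limma adjusted p of the 15 probe sets lay between 0.850 and 0.997. The median log2 difference of the 9 genes was -0.07 (BDL minus sham), with 3 positive and 6 negative, beside -0.01 over the 6897 genes tested, of which 49.2% were positive. This median was -0.27 without BDL mouse 1, -0.21 without sham mouse 2 and 0.064 without BDL mouse 12. An exact two-sided permutation test of 3 against 3 arrays cannot give a p below 0.1, and its p for the 15 probe sets lay between 0.2 and 1.

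Over the whole array, 552 probe sets had an unadjusted limma p under 0.05, a count that was 300 without BDL replicate 3 and 1152 without sham replicate 3. Trimmed mean signals were equal on the 6 arrays, at 1501. On sham replicate 1, 12.5% of probe sets were at or under a signal of 152.7, which served as the floor for low signals, against 24.4% to 31.3% on the other arrays. All 15 dehydrogenase probe sets were above this floor on all 6 arrays. Of 10 hepatocyte markers tested, the summed signals were 676666 to 852276 in BDL mice and 535455 to 812244 in sham mice, with 0 of them at the floor throughout. Of the lists for other cells, macrophage markers summed to 11456 to 17481 in BDL mice and 6923 to 12161 in sham mice. For stellate cell and fibroblast markers the BDL sums were 19567 to 24395 and the sham sums 12619 to 22234, and for neutrophil markers the BDL sums were 63481 to 111386 and the sham sums 49558 to 70531. Most of the neutrophil sum was Lcn2, which hepatocytes also make, with BDL signals of 55676 to 101006 and sham signals of 37344 to 65153. Of the 12 neutrophil markers 7 had a negative difference, and their median was -0.11. Liver endothelial markers had BDL sums of 8342 to 10482 and sham sums of 4869 to 9712, and cholangiocyte markers had BDL sums of 1430 to 1791 and sham sums of 695 to 1591. The part of these cells in the values below was not tested.

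**Figure D1:**
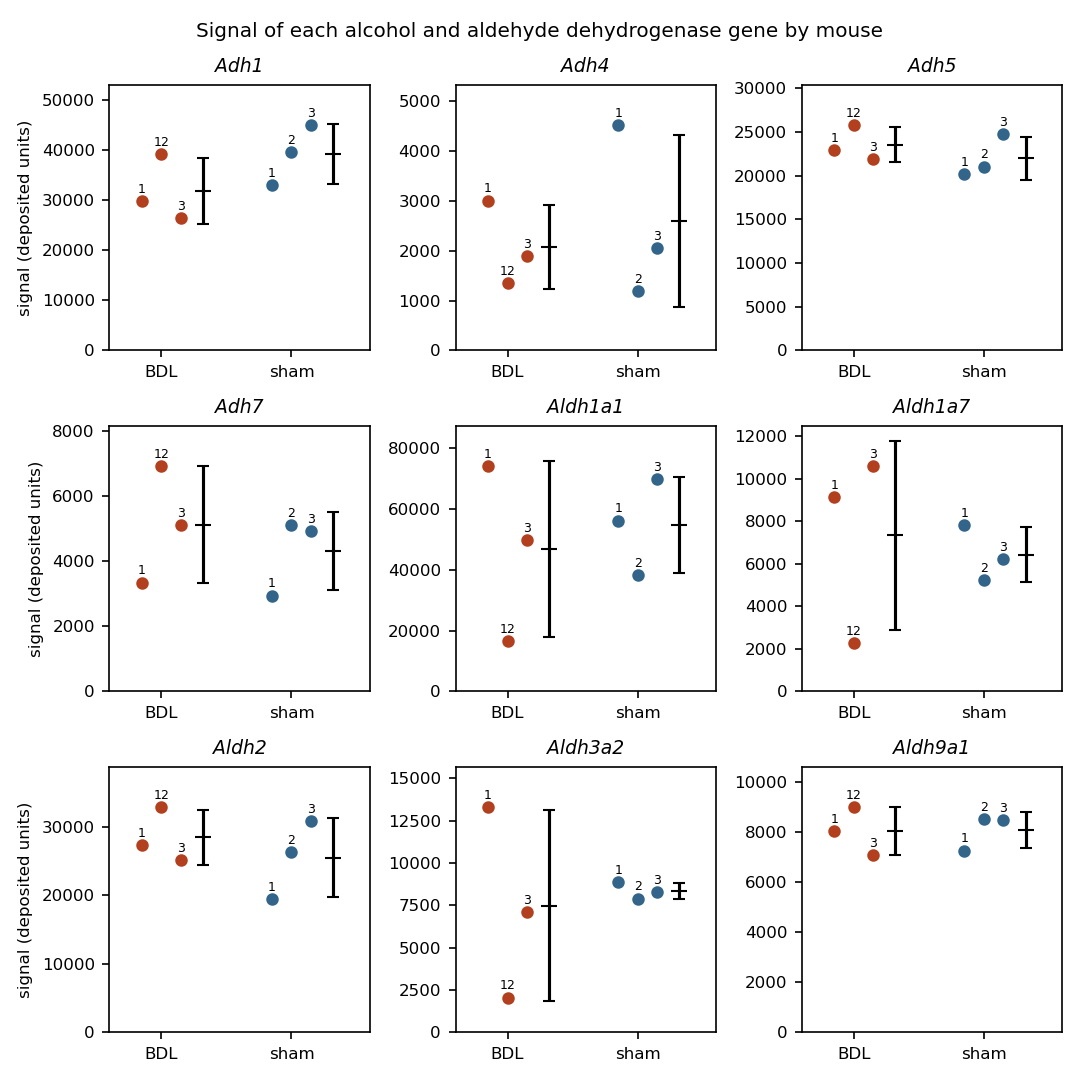
Signal in deposited units (vertical axes, each from 0) of the probe set that represents each of the 9 genes, by mouse, with BDL left of sham. Numbered points are mice, and the black bar beside them is the mean with its SD (n = 3); BDL and sham points overlap in every panel, and BDL mouse 12 lies lowest for Aldh1a1, Aldh1a7 and Aldh3a2.

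Adh1 encodes the class I alcohol dehydrogenase, the main ethanol and retinol dehydrogenase of the liver. Its signals were 29756, 39066 and 26345 in BDL mice 1, 12 and 3, against 32942, 39516 and 44920 in sham mice 1, 2 and 3. The BDL mean was the lower one, at 31723 ± 6585 against 39126 ± 5998 in sham mice (SD, n = 3 each), but BDL mouse 12 lay above sham mouse 1, so the groups overlapped. The log2 difference was -0.31 (SE 0.30, limma adjusted p = 0.873), with a 95% interval from -0.99 to 0.37. It stayed between -0.47 and -0.19 when any single mouse was left out.

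Adh4, the class II enzyme, which prefers longer alcohols and retinol, differed several-fold between mice of the same group. Its signals were 3005, 1348 and 1886 in BDL mice 1, 12 and 3, against 4521, 1194 and 2050 in sham mice 1, 2 and 3. A second probe set read 2429, 653 and 1366 in BDL mice, against 3384, 578 and 1717 in sham mice, and put the 6 mice in the same order. Sham mouse 1 was highest and sham mouse 2 lowest on both, with the 3 BDL mice between them. The log2 differences were -0.18 (SE 0.51) and -0.21 (SE 0.68). They turned to 0.33 and 0.38 without sham mouse 1, and to 0.09 and 0.28 without BDL mouse 12.

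Adh5, the class III enzyme, which oxidizes formaldehyde bound to glutathione and breaks down S-nitrosoglutathione, was one of the steadiest signals on the arrays. It read 22915, 25774 and 21895 in BDL mice 1, 12 and 3, against 20161, 21016 and 24721 in sham mice 1, 2 and 3. The highest and lowest of these 6 mice were 1.28-fold apart. The log2 difference was 0.10 (SE 0.27), with a 95% interval from -0.52 to 0.72. The other Adh5 probe set had 12677 ± 555 in BDL mice and 13968 ± 1347 in sham mice (SD, n = 3 each) and a difference of the opposite sign, -0.14 (SE 0.27).

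Adh7, the class IV enzyme, is best known from the lining of the stomach and upper gut, where it oxidizes retinol and ethanol. It gave signals of 3342, 6934 and 5121 in BDL mice 1, 12 and 3, against 2951, 5116 and 4923 in sham mice 1, 2 and 3. In each group mouse 1 was the lowest. The log2 difference was 0.22 (SE 0.38), and it was -0.02 without BDL mouse 12 and -0.03 without sham mouse 1. Of 10 stomach and upper gut markers on the array, 5 were tested: their summed signals were 7216 to 9479 in BDL mice and 6378 to 9742 in sham mice. Tff1, a mucosal trefoil peptide, made up much of this sum at 3255 to 5444 in BDL mice and 2759 to 4159 in sham mice. Its relative Tff2 was under the floor in all 6 mice, with BDL signals of 33.6 to 78.7 and sham signals of 49.8 to 111.4. Whether the Adh7 probe set also reads other Adh transcripts was not tested.

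Aldh1a1 encodes the cytosolic enzyme that oxidizes retinaldehyde to retinoic acid and takes part in clearing acetaldehyde and lipid aldehydes. Its main probe set read 74126, 16516 and 49714 in BDL mice 1, 12 and 3, against 56163, 38257 and 69717 in sham mice 1, 2 and 3. BDL mouse 1 was the highest of the 6 and BDL mouse 12 the lowest, 4.49-fold apart within one group. The log2 difference was -0.43 (SE 0.54, limma adjusted p = 0.904), and without BDL mouse 12 it was 0.19. A second Aldh1a1 probe set with low signals did not show this drop: it read 361, 429 and 405 in BDL mice, against 428, 541 and 306 in sham mice, and differed by -0.06 (SE 0.31). The probe sets of Aldh1a1 thus disagreed on the order of the mice.

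Aldh1a7, a close relative of Aldh1a1 that rodents carry beside it, gave 9134, 2281 and 10586 in BDL mice 1, 12 and 3, against 7813, 5233 and 6226 in sham mice 1, 2 and 3. Again BDL mouse 12 was lowest, while the other BDL mice were both above all 3 sham mice. The log2 difference was -0.07 (SE 0.56), and it was 0.63 without BDL mouse 12 (limma adjusted p = 0.911). Because the genes are close copies, signal of one may be read in part by probes of the other, which was not tested.

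Aldh3a2 encodes the fatty aldehyde dehydrogenase of the endoplasmic reticulum, which oxidizes long-chain aldehydes from membrane lipids. Its signals were 13307, 2058 and 7118 in BDL mice 1, 12 and 3, against 8866, 7896 and 8272 in sham mice 1, 2 and 3. The sham mice lay within 1.12-fold of each other, whereas the BDL mice spanned 6.47-fold, with BDL mouse 1 above and BDL mice 3 and 12 below all sham mice. A second probe set read 3984, 974 and 2610 in BDL mice, against 4839, 3118 and 2640 in sham mice. BDL mouse 12 was again lowest by a wide margin, although the _f_at name of this probe set marks probes shared within a sequence family. The log2 differences were -0.52 (SE 0.60) and -0.66 (SE 0.52, limma adjusted p = 0.850). Without BDL mouse 12 they were 0.22 and -0.08, and without BDL mouse 1 they were -1.12 and -1.10.

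Aldh2, the mitochondrial enzyme that does most of the oxidation of acetaldehyde from ethanol, was measured by 3 probe sets. The brightest read 27318, 32837 and 25056 in BDL mice 1, 12 and 3, against 19421, 26238 and 30782 in sham mice 1, 2 and 3. Its groups overlapped, with the lowest signal in sham mouse 1, and the log2 difference was 0.17 (SE 0.30) with a 95% interval from -0.52 to 0.87. The second probe set had 21316 ± 2877 in BDL mice and 18416 ± 2261 in sham mice (SD, n = 3 each; log2 difference 0.21, SE 0.28). The third, whose _f_at name likewise marks probes shared within a sequence family, had 4205 ± 338 in BDL mice and 4134 ± 37.6 in sham mice (log2 difference 0.02, SE 0.27).

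Aldh9a1 oxidizes trimethylaminobutyraldehyde in carnitine synthesis and aminoaldehydes from polyamines. Its probe set, also an _f_at set, read 8048, 9011 and 7084 in BDL mice 1, 12 and 3, against 7271, 8523 and 8497 in sham mice 1, 2 and 3. The means were 8047 ± 964 in BDL and 8097 ± 716 in sham mice (SD, n = 3 each), and the log2 difference was -0.01 (SE 0.28) with a 95% interval from -0.64 to 0.62.

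Intervals of the differences show how large a change could have been missed. For Adh1, Adh5, Aldh2 and Aldh9a1, 4 of the 9 genes or 44.4%, the 95% interval of the main probe set lay within 2-fold in either direction. Such an interval was found for 8 of the 15 probe sets of the members, and for 34.5% of all 9542 tested. The 9 main probe sets had a mean log2 signal of at least 11.03, whereas the 9542 include many dimmer ones. These shares are therefore not of like signals. For Adh7 the interval reached a 2.12-fold higher level in BDL. The intervals of Aldh1a1, Aldh1a7, Aldh3a2 and Adh4 all reached below 0.5 times the sham level, and that of Aldh3a2 ran from 0.270 to 1.79 times. That of Aldh1a7 ran from 0.395 to 2.30 times, so it passed 2-fold on both sides. Differences of these sizes lie within what 3 mice a group left undetermined.

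**Figure D2:**
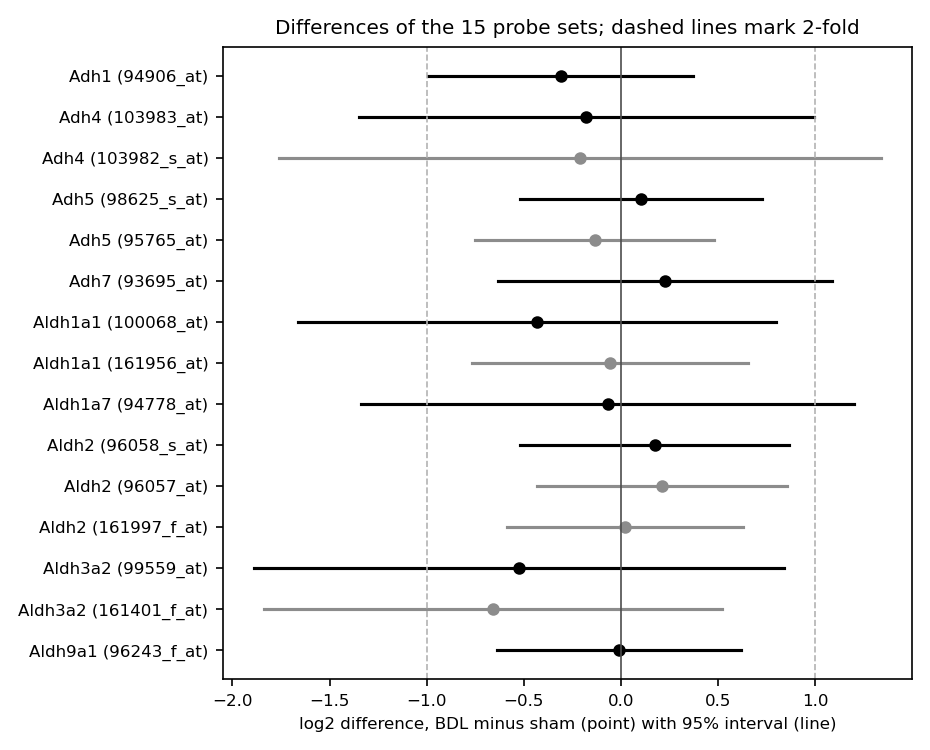
Log2 difference, BDL minus sham, with its 95% interval from limma (horizontal axis) for the 15 probe sets, named by gene and probe set; black marks the probe set that represents a gene and grey the others. All intervals cross 0, and dashed lines at a 2-fold difference enclose 8 of them, namely all those of Adh1, Adh5, Aldh2 and Aldh9a1 and the second of Aldh1a1.

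The spread between mice of one group was itself measured against all other probe sets. The pooled within-group SD of the log2 signal had a median of 0.44 over the 9542 probe sets tested. Adh5 (SD 0.14), Aldh9a1 (0.15), Adh1 (0.26) and Aldh2 (0.28) were at percentiles 2.64, 3.63, 17.4 and 20.5 of these SDs. Adh4 (0.80), Aldh1a1 (0.85), Aldh1a7 (0.89) and Aldh3a2 (0.97) were at percentiles 88.1, 90.7, 92.3 and 94.8, and Adh7 (0.49) at percentile 57.1. Among probe sets in the same 1 log2 unit of mean signal, Adh5 was at percentile 4.38, Aldh9a1 at 7.97, Adh1 at 25.5, Aldh2 at 38.1 and Adh7 at 76.6. On this matched scale Aldh1a1 was at percentile 93.6, Adh4 at 94.8, Aldh1a7 at 94.9 and Aldh3a2 at 96.0, so that Adh1 and Aldh2 stood nearer the middle than in the ranking over all signals.

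**Figure D3:**
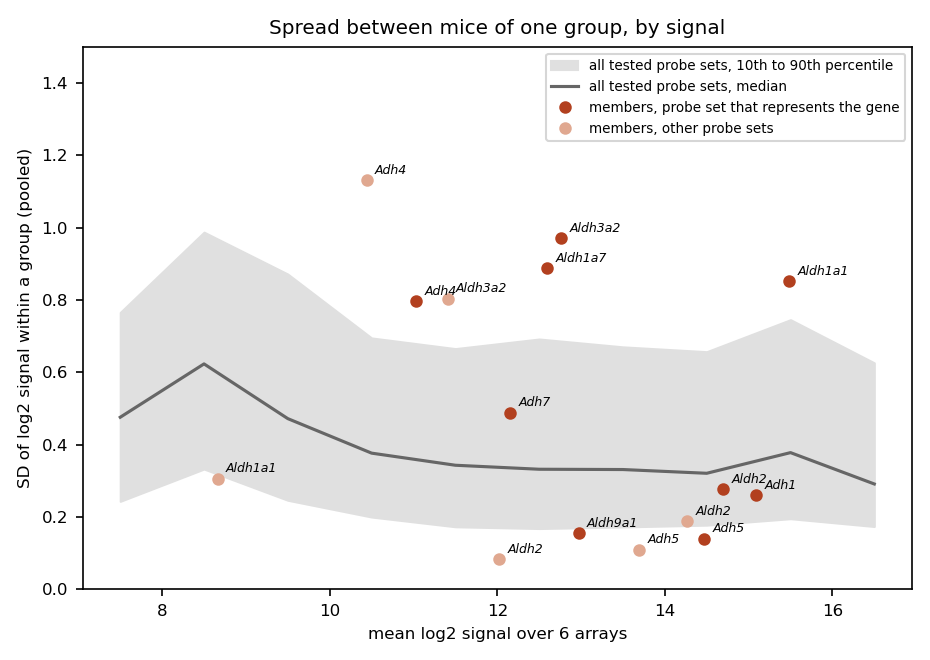
Pooled SD of the log2 signal between mice of one group (vertical axis) against the mean log2 signal over 6 arrays (horizontal axis). The grey band and line give the 10th to 90th percentile and the median of all tested probe sets by signal. Dark points are the probe sets that represent the 9 genes and pale points their other probe sets. Of the dark points, those of Adh4, Aldh1a1, Aldh1a7 and Aldh3a2 lie above the band and those of Adh5 and Aldh9a1 below it. Of the pale points, those of Adh4 and Aldh3a2 lie above it. The pale points of Adh5 and Aldh1a1 and the dimmest of Aldh2 lie below it.

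The low signals of BDL mouse 12 were a pattern of 3 genes, noticed after the values were seen and described here without a test. In that mouse the log2 signal minus the mean of the 6 arrays was -1.47 for Aldh1a1, -1.44 for Aldh1a7 and -1.76 for Aldh3a2. Each was lower than the next lowest array by at least 1 log2 unit, namely 1.21 for Aldh1a1, 1.198 for Aldh1a7 and 1.79 for Aldh3a2. Of all tested probe sets 1.04% had such a gap below the other arrays in BDL mouse 12. This array was picked after its values were seen, and each other array had such probe sets too. Their share ran from 0.28% on BDL replicate 1 to 1.83% on sham replicate 1. Among the 2429 probe sets with a mean log2 signal of at least 11, the share in BDL mouse 12 was 1.11%. On that array the 10 hepatocyte markers had a mean deviation of 0.15. The 11 genes of hepatocytes around the central vein had one of -0.35, though these were lower still on BDL replicate 3, at -0.47. These 11 did not move together. Among the BDL mice, Glul, Cyp1a2, Slc1a2 and Cyp2e1 were highest in mouse 12. Gstm3, Ahr, Lect2, Slc1a4 and Axin2 were lowest there, and Oat and Cyp7a1 lay between. Ahr read 377 in mouse 12, against 1105 to 2564 on the other arrays. The part of these genes in the low signals was not tested. The same mouse had the highest signal of the 6 for Adh5, Adh7, Aldh2 and Aldh9a1 by their main probe sets. Among the hepatocyte markers it was also highest of the 6 for albumin (Alb, 199675 against 125084 to 170913 in sham mice), Fgb, Apoa1 and Ambp. For Apoa2 and Ahsg it was highest among the BDL mice only. Cps1 and Apob were lowest there among the BDL mice, at 71890 and 11306, and Hnf4a and Ttr lay between. Cyp2e1, the cytochrome P450 of ethanol oxidation, read 104374, 144882 and 85938 in BDL mice 1, 12 and 3 and 77015 to 149840 in sham mice. By the main probe sets, BDL mouse 12 and sham mouse 2 were each the lowest of their group for Adh4, Aldh1a1, Aldh1a7 and Aldh3a2.

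**Figure D4:**
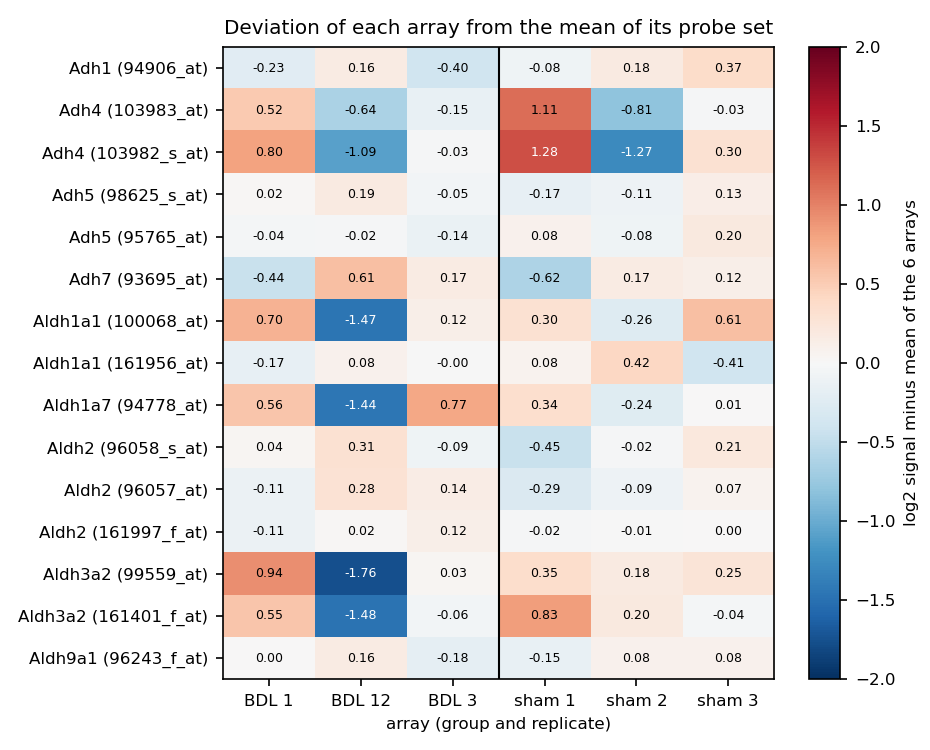
Log2 signal of each array minus the mean of the 6 arrays (colour and printed value) for the 15 probe sets (rows), with the BDL arrays left of the sham arrays (columns). BDL 12 stands at -1.47 for Aldh1a1, -1.44 for Aldh1a7 and -1.76 for Aldh3a2, while the rows of Adh5, Aldh2 and Aldh9a1 lie between -0.45 and 0.31.

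Promoters of the 3 genes with the low signals in BDL mouse 12, and of Adh5 as a steady gene, are shown to compare their sequence. They are the 250 bases before a gene's start from RefSeq's annotation of GRCm38.p6, in which 8 of the 9 genes had an entry. The table gives 2 starts for Aldh1a1 and 2 for Adh5, and the second of each is printed. The Aldh1a1 promoter is chr19:20601718-20601967 (plus strand), that of Aldh1a7 chr19:20727557-20727806 (minus strand), that of Aldh3a2 chr11:61267187-61267436 (minus strand) and that of Adh5 chr3:138442843-138443092 (plus strand). Capitals mark matches, on either strand, to the motifs named below.
Aldh1a1: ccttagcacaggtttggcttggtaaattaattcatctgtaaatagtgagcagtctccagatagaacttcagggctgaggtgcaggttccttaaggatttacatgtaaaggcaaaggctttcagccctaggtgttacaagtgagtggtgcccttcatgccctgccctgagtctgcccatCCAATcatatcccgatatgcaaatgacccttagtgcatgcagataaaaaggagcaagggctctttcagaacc
Aldh1a7: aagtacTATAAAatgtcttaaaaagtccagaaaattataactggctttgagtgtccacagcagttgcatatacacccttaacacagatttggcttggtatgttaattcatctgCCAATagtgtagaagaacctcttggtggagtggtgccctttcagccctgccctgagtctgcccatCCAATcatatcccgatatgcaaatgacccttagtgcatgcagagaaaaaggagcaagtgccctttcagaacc
Aldh3a2: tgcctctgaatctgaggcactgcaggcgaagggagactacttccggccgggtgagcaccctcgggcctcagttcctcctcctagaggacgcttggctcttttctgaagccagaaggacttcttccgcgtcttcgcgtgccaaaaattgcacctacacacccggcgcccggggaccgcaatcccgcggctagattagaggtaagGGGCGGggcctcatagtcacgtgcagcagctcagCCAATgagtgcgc
Adh5: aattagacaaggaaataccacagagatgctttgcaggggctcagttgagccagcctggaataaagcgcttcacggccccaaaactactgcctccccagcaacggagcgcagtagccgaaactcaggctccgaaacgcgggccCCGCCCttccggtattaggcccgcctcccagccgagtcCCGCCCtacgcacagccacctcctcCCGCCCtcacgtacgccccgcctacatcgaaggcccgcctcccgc

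The last 100 bases before the start were identical between Aldh1a1 and Aldh1a7 at 94 positions. Over the 250 bases printed, 129 were identical without gaps and 185 when aligned. Alignment alone gives a high count, since pairs that are not close copies also reached 133 (Adh7 with Aldh9a1) and 150 (Aldh3a2 with Aldh9a1). Aldh1a1 and Aldh1a7 both carry CCAAT at 72 bases before the start. Aldh1a7 has a further CCAAT at 137 bases and TATAAA at 244 bases. Aldh3a2 has CCAAT at 13 bases and GGGCGG at 47 bases before its start, and Adh5 has GGGCGG 3 times on the other strand, printed as its complement, at 108, 70 and 45 bases. CpG dinucleotides numbered 1 in the Aldh1a1 and 1 in the Aldh1a7 promoter, but 18 in that of Aldh3a2 and 21 in that of Adh5, beside a median of 6 over 32851 promoters. The first starts of these genes differed: that of Aldh1a1 shared 30 of the last 100 bases with Aldh1a7 and held 3 CpG, and that of Adh5 held 2 CpG and no GGGCGG. The motifs were searched on both strands, and their matches do not overlap in the sequences shown. The TATA box letters TATAAA were held by 12.4% of all promoters of the same length, the CCAAT box letters CCAAT by 33.8% and the GC box letters GGGCGG by 32.7%. The core of the antioxidant response element, searched as TGACNNNGC, was held by 10.2%, and a site form of C/EBP factors, searched as TTGCNNCAA, by 1.74%. A match is a description of these letters and says nothing of a factor.

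Other genes of the same superfamilies were measured beside the 9. Of 18 further Adh and Aldh genes listed, 5 were on the array by name and 3 were tested, with 2 differences positive, 1 negative and 0 at an unadjusted p under 0.05 in either direction (3.4% higher and 2.39% lower over all probe sets). Aldh7a1, an enzyme of lysine breakdown, read 21364, 14425 and 13061 in BDL mice 1, 12 and 3, against 23735, 21928 and 23279 in sham mice 1, 2 and 3. The 3 BDL mice lay below the 3 sham mice on this probe set, where the log2 difference was -0.53 (SE 0.30, limma adjusted p = 0.832), but they overlapped with them on a second (-0.40, SE 0.31) and on another near the floor, which had the opposite sign (0.13, SE 0.29). Aldh3a1, an enzyme abundant in the cornea, read 772, 1025 and 863 in BDL mice, against 789, 695 and 557 in sham mice (log2 difference 0.39, SE 0.29). Aldh18a1, an enzyme of proline synthesis, was above the floor on 3 arrays and differed by 0.16 (SE 0.35). Aldh1a2 and Aldh1a3, retinaldehyde dehydrogenases of other tissues, were above the floor only on sham replicate 1, whose low signals were raised, at 420 and 400, and were not tested.

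Among the 15 tested enzymes that meet the same alcohols and aldehydes by other routes, Cbr3 had the smallest unadjusted limma p. The 1 gene of 15 at an unadjusted p under 0.05 stands beside 5.78% of all probe sets tested. Of 15 tested genes of aldehyde and ketone metabolism, 4 differences were positive and 11 negative, with a median of -0.11. Cbr3, a carbonyl reductase, read 1542, 735 and 901 in BDL mice 1, 12 and 3, against 557, 258 and 381 in sham mice 1, 2 and 3, with the groups apart (log2 difference 1.41, SE 0.40, limma adjusted p = 0.827). Hagh, a glyoxalase that completes the removal of methylglyoxal, differed by -0.77 (SE 0.36). Xdh, the xanthine dehydrogenase, differed by 0.57 (SE 0.36), and Cbr1, the more general carbonyl reductase, by 0.48 (SE 0.37), each with overlapping groups. The mean deviation of the 15 genes was -0.39 on BDL replicate 12 and -0.36 on sham replicate 2, against 0.06 to 0.33 on the other 4 arrays. Of 5 tested genes of ethanol and acetate metabolism the median was 0.01, with 3 positive and 0 at an unadjusted p under 0.05. In this list Ces1d, a carboxylesterase, differed by -1.18 (SE 0.61), on an _f_at set with probes shared within a sequence family. Sult1a1, a phenol sulfotransferase, differed by 0.85 (SE 0.47), Cat, the peroxisomal catalase, by -0.18 (SE 0.42), and Acss1, a mitochondrial acetyl-CoA synthetase, by 0.14 (SE 0.48).

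Retinoid handling genes, the surroundings of Adh1 and Aldh1a1, had a median difference of -0.12 over 10 tested members, with 4 positive and 6 negative. At an unadjusted p under 0.05, 1 was lower and 0 higher, beside 2.39% lower and 3.4% higher over all probe sets. The 1 was Ttr, the plasma carrier of retinol-binding protein, at 3576, 4520 and 4824 in BDL mice 1, 12 and 3, against 11138, 6456 and 14576 in sham mice 1, 2 and 3 (log2 difference -1.25, SE 0.36, limma adjusted p = 0.830). Rdh16, a retinol dehydrogenase of liver microsomes, differed by -1.08 (SE 0.49) with overlapping groups. Rdh5, another retinol dehydrogenase, read 263, 221 and 284 in BDL mice, against 327, 287 and 836 in sham mice (log2 difference -0.75, SE 0.43). These groups were apart, though BDL mouse 3 and sham mouse 2 were nearly level. Rxrb, a retinoid X receptor, differed by 0.49 (SE 0.57). The retinoic acid receptors Rara and Rarg were above the floor on 1 and 2 arrays and were not tested.

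Carnitine synthesis and fatty aldehyde genes, the surroundings of Aldh9a1 and Aldh3a2, had a median of -0.23 over 5 tested members, 1 of them positive. Of these 0 were at an unadjusted limma p under 0.05, beside 5.78% of all probe sets tested. Shmt1, the serine hydroxymethyltransferase of the cytosol, differed by -1.01 (SE 0.45). Slc25a20, the mitochondrial carnitine carrier, differed by -0.32 (SE 0.29), Slc22a5, the plasma membrane carnitine transporter, by -0.23 (SE 0.40), and Sgpl1, the sphingosine phosphate lyase that releases a fatty aldehyde, by 0.15 (SE 0.30). Genes of the hepatocytes around the central vein had a median of -0.17 over 11 tested members (4 positive). Those around the portal tract had a median of -0.19 over 12 (2 positive). In either list 0 genes were at an unadjusted limma p under 0.05, and with 5.78% over all probe sets such short lists may well hold 0. Of the central vein genes, Gstm3, a glutathione transferase, differed by 0.77 (SE 0.40), on an _f_at set with probes shared within a sequence family. Cyp1a2, an aryl hydrocarbon inducible cytochrome, differed by -0.81 (SE 0.42), Oat, ornithine aminotransferase, by -0.84 (SE 0.59) and Cyp7a1, the bile acid synthesis enzyme, by -1.29 (SE 0.99). Of the portal tract genes, the BDL mice lay below the sham mice for G6pc, glucose-6-phosphatase (-1.001, SE 0.54), and Cyp2f2, a cytochrome P450 (-0.42, SE 0.29). Over all tested probe sets 4.32% had groups apart with BDL lower. For G6pc, BDL mouse 12 at 18910 was nearly level with sham mouse 3 at 19646, and BDL mouse 3 was far lower at 4173. Pigr, the immunoglobulin transporter, differed by -0.46 (SE 0.34) and Asl, argininosuccinate lyase, by -0.49 (SE 0.42), with overlapping groups.

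Genes whose signals ran most like those of 2 members over the 6 arrays were found among 5647 other genes with a mean signal at least 1 log2 unit above the floor. For Adh1 these were Cyp1a2 (Pearson r = 0.98), Chpt1 (0.96) and Pon1 (0.96). Cyp1a2 read 7265, 15144 and 5853 in BDL mice 1, 12 and 3, against 11725, 13889 and 21339 in sham mice 1, 2 and 3. For Aldh1a1 they were Ahr, Stk16 and Pnkd, each with r of 0.988 to 0.999. Ahr, the aryl hydrocarbon receptor, read 2564, 377 and 1480 in BDL mice 1, 12 and 3, against 1808, 1105 and 2180 in sham mice 1, 2 and 3. Its low signal in BDL mouse 12 follows from the choice by likeness. With 6 arrays that share their scaling, r above 0.9 was reached by 20 genes for Adh1 and by 124 for Aldh1a1, and these names are a description of the arrays.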

How the data were processed

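Per the series' design text, cRNA (20 µg) from the liver of each of 3 BDL and 3 sham mice was hybridized to its own U74Av2 array. Each array has 1 deposited intensity value for every probe set, linear in scale, computed with Affymetrix expression software per the design text; scaling target and background handling: not given in the sources used here. With trimmed means (2%) of 1501 on each array, they were kept as deposited.

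A floor of 152.7 (25th percentile over the 6 arrays) replaced lower signals before the log2 step, so differences between low signals are understated. Of 12488 probe sets, 66 controls were left out and 9542 above the floor on at least 3 arrays were tested with limma 3.58.1 in R 4.3.3, without covariates (4 residual and 4.67 prior degrees of freedom), with Benjamini-Hochberg adjustment. SEs are moderated. Arrays were also simulated with normal noise from the means and moderated spreads of the 9542 probe sets. In each of 10 simulations 200 changes, of 2-, 4-, 8- and 16-fold, were planted together. They were planted only in probe sets with a mean more than 3 log2 units above the floor. Of these, 8% of planted 2-fold and 89.4% of planted 4-fold changes of BDL minus sham were called. The larger changes planted beside them loosen the adjusted threshold, so these shares may be too high for data in which 0 passed. They are averages over probe sets of all spreads and do not describe Adh4, Aldh1a1, Aldh1a7 and Aldh3a2, whose spread was wide.

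Probe sets with 1 platform symbol (10833) were named, updated by gene ID to RefSeq (GRCm38.p6); the probe set of highest mean log2 signal stands for its gene. Members and lists were chosen with earlier results of these data known. Besides the 9 genes, up to 4 tested genes of each of 7 pathway lists with the smallest p are named, and 3 genes most like Adh1 and Aldh1a1. Genes named outside these rules were chosen after their values were seen: Alb, Fgb, Apoa1, Apoa2, Apob, Ambp, Ahsg, Cps1, Hnf4a, Cyp2e1, Lcn2, Tff1, Tff2, Aldh1a2, Aldh1a3, Rara, Rarg, Glul, Slc1a2, Slc1a4, Lect2 and Axin2. The number of arrays limits the precision, and no source names a batch.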

Additional observations from a re-analysis of the deposited data

How the results depend on the processing

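No member passed the adjusted threshold under any alternative run, namely quantile normalization, a lower and a higher floor, a constant added in place of the floor, testing all probe sets, a variance trend, array weights, each array left out and the replicate number as a block; the lowest limma adjusted p of a member was 0.571. Without a filter 3 probe sets of the whole array passed, against 0 otherwise, and array weights brought 1023 probe sets under an unadjusted p of 0.05, against 552. Of 216 alternative values for the 15 probe sets, 190 had the sign of the main value and 26 the opposite sign. Many of the 190 were fixed in advance, because a lower floor, no filter or a variance trend could not change these differences. The higher floor changed only that of the second Aldh1a1 probe set. The count therefore overstates how stable the signs were. Leaving out 1 array gave -0.63 to 0.33 for Adh4 (second probe set -0.90 to 0.38), -0.030 to 0.50 for Adh7, -0.89 to 0.19 for Aldh1a1 (second probe set -0.28 to 0.13) and -0.47 to 0.63 for Aldh1a7. It gave -0.010 to 0.32 for Aldh2 (the dimmest probe set -0.033 to 0.083), -1.12 to 0.22 for Aldh3a2 and -0.097 to 0.077 for Aldh9a1. The median of the 9 genes was -0.27 to 0.064 with 1 array left out and 0.019 with array weights. Array weights gave 0.35 and 0.62 for the Adh4 probe sets, 0.019 for Aldh1a1 and 0.41 for Aldh1a7. Quantile normalization gave 0.0075 for the second Aldh1a1 probe set, and the other Adh5 probe set gave -0.14. For medians of lists, that of other Adh and Aldh genes was -0.072 with the floor at the 40th percentile and -0.091 to 0.32 with 1 array left out; that of ethanol and acetate genes was -0.20 after quantile normalization and -0.23 to 0.21 with 1 array left out. The carnitine and fatty aldehyde median was -0.48 with array weights and -0.47 to -0.045 with 1 array left out, and the periportal median -0.38 to -0.093. The cause was not tested.

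The replicate numbers 1 and 3 occur in both groups, and deviations of same-numbered arrays from their group means correlated at 0.21 and 0.25 over the tested probe sets. BDL replicate 12 and sham replicate 2, which share no number, correlated at 0.29, and the other 6 pairs at -0.21 to -0.040; no source says that a number marks a shared litter or day, or that 12 stands for another number. With the replicate number as a block, only numbers 1 and 3 bear on the difference, so that BDL replicate 12 and sham replicate 2 are in effect left out. In that fit 0 probe sets passed, and values were 0.0048 for the median of the 9 genes, 0.079 for the second Aldh1a1 probe set, 0.50 for Aldh1a7, 0.18 for Aldh3a2 and -0.14 for the median of the other Adh and Aldh genes. Signals near the floor limit what can be said of low genes such as Aldh1a2; the 15 probe sets here were all above it.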
